A study of Mus musculus with 13 samples.

Results

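The cyclins, the cyclin-dependent kinases (CDKs), the CDK inhibitors and the proteins named for binding them were read in whole testes of mice labelled as Wfdc15a knockouts and of their controls. They were picked by a rule on gene symbols, with earlier results of these data known. The rule took every listed symbol that starts with Ccn, a letter from a to h, j, k, l, t or y and a digit. It also took those that start with Cdk and a digit, or with Cdkn1 or Cdkn2. This gave 52 of the 25965 listed genes, on 17 chromosomes. The groups were 6 libraries labelled KO, and as control 4 heterozygous (Het) and 3 wild-type (WT) libraries, which the series' design text counts together to ask what Wfdc15a does in spermatogenesis. All 13 testes came from mice 15 weeks old, with the outer capsule removed. The labels name neither the strain nor the design of the knockout allele, and give no other allele or treatment. Each sample title adds a number to the genotype, and the labels do not explain it. It is 1 in KO replicates 1 to 3 and Het replicate 1, and 2 in KO replicates 4 to 6, Het replicates 2 to 4 and WT replicates 1 to 3.

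A CDK is a protein kinase that is inactive until a cyclin binds it, and the pairs formed decide the step of the cell cycle. D cyclins with CDK4 or CDK6 and E cyclins with CDK2 act before DNA replication, A cyclins with CDK2 or CDK1 during it, and B cyclins with CDK1 at division. The INK4 inhibitors block CDK4 and CDK6, the CIP/KIP inhibitors bind a wider range of cyclin-CDK pairs, and other CDKs phosphorylate RNA polymerase II in place of cell cycle proteins. The testis holds mitotic spermatogonia, meiotic spermatocytes, spermatids that no longer divide and somatic Sertoli and Leydig cells, and several family members are known for a single one of these stages in mice.

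The expression unit is RPM, reads scaled to a common library depth, which was 4.513 to 11.126 M reads, with 90.4% to 94.95% of it on the listed genes. One read was worth 0.0899 to 0.222 RPM. Wfdc15a itself had 19.4 to 33.4 RPM in KO libraries of number 1, 48.1 to 81.3 RPM in KO libraries of number 2 and 53.5 to 85.8 RPM in controls. It was lower than control in number 1 (log2 difference -1.21, two-sided exact permutation p = 0.0167, the smallest this test can give for 3 against 7 libraries) and not detectably so in number 2 (-0.11, exact permutation p = 0.55), so KO below means the libraries labelled KO. Summed RNA of 10 Sertoli cell markers was 2391 to 3762 RPM in KO against 1317 to 2233 RPM in control libraries, that of 7 Leydig cell markers 5620 to 9709 against 2288 to 4201 RPM, and that of 6 macrophage markers 110 to 260 against 57.0 to 95.6 RPM. Summed RNA of 9 elongating spermatid markers was 5588 to 8878 RPM in KO against 13429 to 17780 RPM in control libraries. None of the 4 sums overlapped between the groups. Clu made up most of the Sertoli sum (mean 2822 RPM in KO and 1403 in control). Insl3 (2889 and 994 RPM) and Cyp17a1 (2356 and 1235 RPM) made up most of the Leydig sum. By limma 7 of 10 Sertoli, 7 of 7 Leydig and 5 of 6 macrophage genes were called higher, against 18.4% of all genes tested. Gata4, Amh and Rhox5 were the Sertoli genes not called. All 9 elongating spermatid genes were called lower, against 6.18%. Of the other marker lists, 6 round spermatid genes summed to 1587 to 1838 against 1793 to 2013 RPM and 6 pachytene and diplotene spermatocyte genes to 3396 to 3688 against 3610 to 4224 RPM. Early meiotic genes summed to 250 to 343 against 240 to 324 RPM, differentiating spermatogonial genes to 332 to 394 against 293 to 409 RPM, and undifferentiated spermatogonial genes to 34.0 to 57.2 against 29.8 to 70.5 RPM. Of the 5 differentiating spermatogonial genes 2 rose, Kit (106 RPM in KO, 45.2 in control, log2 1.21, limma adjusted p = 2.29e-05) and Stra8 (27.4 and 14.0 RPM, log2 0.84, limma adjusted p = 0.00509), while Dmrtb1, which makes up most of the sum, was not called (225 and 261 RPM). Peritubular and smooth muscle genes summed to 73.1 to 145 against 46.8 to 116 RPM and endothelial genes to 26.4 to 47.8 against 6.61 to 32.2 RPM. No marker was at 0 throughout a group. The part of these marker differences in the results below was not tested, and in whole tissue fewer cells of a type and less RNA per cell cannot be told apart.

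Ordered by level per kb of annotated exon, a rough scale for comparing genes, the family was led by Ccnb2, Ccna1 and Cdk16. This length joins the exons of all annotated transcripts of a gene, as 8775 bases for Ccnd3, whose longest transcript has 3858. Ranks can therefore shift with the transcripts annotated. Ccnb2, a B cyclin of dividing cells, held 132 RPM per kb in KO and 130 in control libraries. Ccna1, the A cyclin that mouse spermatocytes need to enter the meiotic divisions, held 102 in KO and 109 in control. Cdk16, a kinase of the PCTAIRE subfamily that mouse spermatids need in their last steps, was next with 48.4 in KO and 54.2 in control. The INK4 inhibitor Cdkn2d followed with 39.5 in KO and 34.6 in control, then Cdk5rap3 with 34.5 and 34.8, and Cdkn2aip with 32.7 and 32.6. Cdk4 and Cdk5 stood at 23.2 and 20.6 RPM per kb in KO and at 15.3 and 11.1 in control. At the low end Ccnd1 held 0.965 in KO and 0.914 in control, Cdk6 0.594 and 0.648, and Cdkn1b 0.343 and 0.356.

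**Figure D1:**
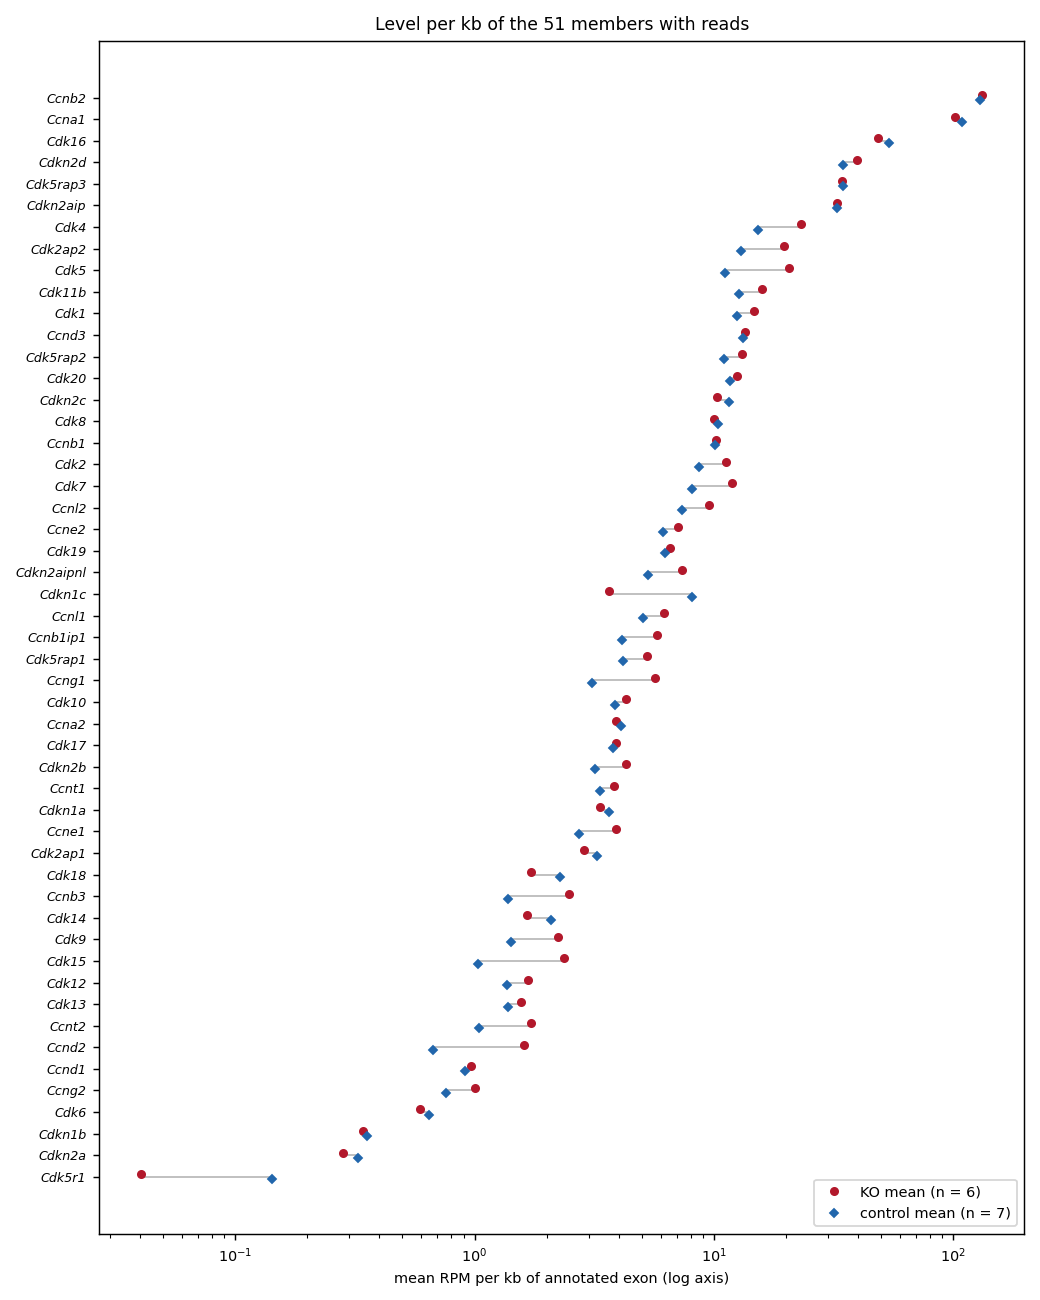
Mean RPM per kb of annotated exon (log axis) of the 51 cyclins, CDKs, inhibitors and binding proteins with reads, with a red circle for the mean of 6 KO libraries and a blue diamond for the mean of 7 control libraries of each gene. Ccnb2, Ccna1 and Cdk16 lead in both groups with nearly the same level, while Ccnd2, Cdk15, Cdk5, Ccng1 and Cdkn1c show wide gaps between the 2 means.

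Among the A, B, D and E cyclins, the PCTAIRE kinases and the INK4 and CIP/KIP inhibitors the same form had the largest mean share in both groups. Ccna1 made up 96.3% of the summed A cyclin RNA per kb in KO and 96.3% in control libraries, and Ccnb2 made up 91.2% of the B cyclins in KO and 91.9% in control. Among the PCTAIRE kinases Cdk16 held 89.5% in KO and 89.8% in control. Ccne2 held 63.7% of the E cyclins in KO and 69.3% in control, and Cdkn2d 72.6% and 69.8% of the INK4 inhibitors. Among the D cyclins Ccnd3 held 83.9% in KO and 89.5% in control, and Ccnd2 held 9.99% (6.996% to 14.1% over libraries) in KO and 4.54% (2.73% to 9.54%) in control. Among the CIP/KIP inhibitors Cdkn1c held 48.5% (35.9% to 64.7%) in KO and 65.8% (59.2% to 78.2%) in control, while Cdkn1a held 46.6% (31.1% to 57.3%) in KO and 30.9% (20.5% to 34.9%) in control. Cdkn1c had the larger share in 3 of the 6 KO and in 7 of the 7 control libraries, and Cdkn1a in the other 3 KO libraries. These shares are descriptions of mean levels and were not tested. They depend on the exon lengths, which for Cdkn1a is 3553 bases against a longest transcript of 2080, and for Cdkn1c 2039 against 1901.

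Of the 52 genes, 49 had a mean of at least 1 RPM and were tested with limma on log2(RPM + 1) over 16235 genes. In KO against control 10 were higher and 1 was lower at an adjusted p under 0.05, which is 11 of 49 or 22.4%, against 24.6% of all genes tested (18.4% higher and 6.18% lower). The share called is near that of all genes, so the family did not stand apart as a whole, and its median log2 difference of 0.18 was also close to the 0.16 of all genes. Since that overall median is above 0, each difference below is also given relative to it. With libraries scaled by the median of gene ratios the median of all genes was 0.02, and the split of all called genes was 1711 higher to 1716 lower in place of 2994 to 1003. In every KO library 3 of the 49 genes (Cdk5, Cdk4 and Cdk7) were above every control, against 5.06% of all genes tested, and 0 were below every control, against 2.89%. The groups were not overlapping in 7.96% of all genes tested.

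Promoter sequences of RefSeq (mouse build GRCm38.p6, 250 bases before to 50 after the start) were found for 43 of the 52 genes and for 8 of the 11 that changed. Those of Cdk4 and Cdk7 are shown because these kinases are 2 of the 3 genes whose groups did not overlap and their windows hold the letters CACGTG, the E-box bound by MYC and USF proteins, here in capitals. No promoter was found for Cdk5, the other of these 3 genes, nor for Ccnd2 and Cdkn1c, so none of them was searched.

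Cdk4 promoter, chr10:127063285-127063584, plus strand: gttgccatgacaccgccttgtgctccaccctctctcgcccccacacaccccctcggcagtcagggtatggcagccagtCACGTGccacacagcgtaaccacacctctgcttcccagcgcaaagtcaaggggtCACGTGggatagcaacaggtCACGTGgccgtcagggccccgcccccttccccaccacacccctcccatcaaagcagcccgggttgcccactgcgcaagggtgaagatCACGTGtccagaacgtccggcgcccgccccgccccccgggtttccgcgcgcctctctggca
Cdk7 promoter, chr13:100730893-100731192, minus strand: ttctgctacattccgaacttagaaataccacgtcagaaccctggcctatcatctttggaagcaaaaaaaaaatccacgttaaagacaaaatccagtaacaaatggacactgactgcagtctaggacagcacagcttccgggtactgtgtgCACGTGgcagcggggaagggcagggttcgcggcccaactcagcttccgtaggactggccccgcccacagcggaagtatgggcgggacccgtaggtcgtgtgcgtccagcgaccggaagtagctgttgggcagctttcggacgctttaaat

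The Cdk4 window holds 4 copies of CACGTG and the Cdk7 window 1. The letters read the same on both strands, and 7.15% of the 32851 mouse promoters of this length hold at least 1 copy, while 4 or more stand in 8 of them, or 0.0244%. Among the 43 genes with a promoter 7 had a copy, the others being Cdk18, Cdkn2c, Cdk6, Cdk8 and Cdk20, none of which was called in KO against control. Of the other motifs searched on both strands, GGGCGG was found in 36 of the 43 genes (35.7% of all promoters), CCAAT in 22 (37.4%), TTTGAA in 6 (17.9%), TGACGTCA in 2 (1.79%), TTTCGCGC in 1 (0.323%) and TTTGGCGC in 0 (0.514%). These counts are of genes, while the percentages are of promoters, and the 43 genes have 49 promoters. Of these 49, 14.3% held CACGTG, 79.6% GGGCGG, 46.9% CCAAT, 12.2% TTTGAA, 4.08% TGACGTCA, 2.04% TTTCGCGC and 0% TTTGGCGC. Of the motifs TGACGTCA shares the letters ACGT with CACGTG, and the motifs may overlap at their ends. The motif to print was chosen after the sequences were seen, and a match is a description of these letters, not a site.

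Of the cyclins that act before DNA replication, 1 of 5 rose. Ccnd2, the D cyclin without which mouse testes and ovarian follicles stay small, lies on chromosome 6 (127125779 to 127151048, build mm10, as for all gene positions here). It was read at 10.6, 13.7 and 22.4 RPM (lowest, median and highest) in KO against 3.41, 5.39 and 12.5 RPM in control libraries. The groups overlapped only through WT replicate 3, the highest control, which lay above 2 of the KO libraries. Ccnd2 averaged 15.2 ± 4.39 RPM in KO (SD, n = 6) and 6.33 ± 3.07 RPM in control libraries (n = 7). The log2 difference was 1.19 (SE 0.245, limma adjusted p = 0.00132), 1.04 above the median of all genes, with all 6 KO libraries above the control mean. Against WT alone it was 0.73 with a limma adjusted p of 0.0943, and against Het alone 1.54 (0.000176).

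Ccnd3, the D cyclin with the highest level here, was not called. It stood at 99.6, 117 and 143 RPM in KO against 93.3, 120 and 134 RPM in control libraries, so the groups overlapped over nearly their whole range. The fitted log2 difference was 0.03 with a 95% interval of -0.19 to 0.24. Ccnd1 (4.54 RPM in KO, 4.30 in control), Ccne1 (10.4 and 7.29 RPM) and Ccne2 (24.8 and 21.4 RPM) also missed the threshold, with log2 differences of 0.17, 0.46 and 0.18.

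Of the A and B cyclins, 1 of 5 rose. Ccnb3, a B-type cyclin known in mice from germ cells entering meiosis, lies on the X chromosome (6979652 to 7041619). Its reads came to 6.34, 11.7 and 15.5 RPM in KO against 2.41, 6.06 and 8.81 RPM in control libraries, with 4 of the 6 KO libraries above every control. The log2 difference was 0.78 (SE 0.269, limma adjusted p = 0.0392), 0.62 above the median of all genes. The call was lost without any single one of 7 libraries (WT replicates 1 and 2, Het replicates 1 and 4, KO replicates 1, 3 and 5), where the limma adjusted p reached up to 0.0958. Scaling by the median of ratios gave 0.098.

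The A and B cyclins with the highest levels were not called. Ccnb2 was read at 172, 204 and 231 RPM in KO against 190, 196 and 214 RPM in control libraries, and its log2 difference was 0.03 with a 95% interval of -0.13 to 0.19. Ccna1 was read at 155, 179 and 242 RPM in KO against 178, 202 and 221 RPM in control libraries, a log2 difference of -0.10. In both genes the KO libraries spread on either side of the controls. Ccnb1 (43.2 RPM in KO, 42.6 in control) and Ccna2 (15.9 and 16.7 RPM) had log2 differences of 0.02 and -0.04.

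Of the 4 CDKs of the cell cycle, Cdk4 rose. Cdk4 is the kinase that D cyclins activate to phosphorylate the retinoblastoma protein, and it lies on chromosome 10 (127063534 to 127067920). Levels were 70.1, 75.3 and 80.8 RPM in KO against 37.7, 51.5 and 60.0 RPM in control libraries. Every KO library lay above every control, and the KO libraries spread over a narrow range. Cdk4 averaged 75.5 ± 4.77 RPM in KO (SD, n = 6) and 49.6 ± 7.599 RPM in control libraries (n = 7), a log2 difference of 0.61 (SE 0.109, limma adjusted p = 0.000416), 0.45 above the median of all genes. It overlaps Tspan31 on the opposite strand, with 641 bases of shared transcript sequence, and Tspan31 rose by more (46.7 ± 7.10 RPM in KO against 19.4 ± 8.30 RPM in control libraries, log2 1.30, limma adjusted p = 0.000108). No label says whether reads were counted by strand, so reads of the shared stretch cannot be told apart.

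Cdk1, the kinase of division and the one of these 4 with the highest mean RPM, was not called. It was read at 63.0, 68.1 and 87.5 RPM in KO against 50.7, 62.0 and 72.5 RPM in control libraries, with overlapping groups and all 6 KO libraries above the control mean. The fitted log2 difference was 0.24 (95% interval 0.01 to 0.48, limma adjusted p = 0.126). Cdk2, which mouse spermatocytes need in meiotic prophase, stood at 70.1 RPM in KO and 54.0 in control with a log2 difference of 0.37 (limma adjusted p = 0.082), and Cdk6 at 8.31 and 9.06 RPM with -0.16.

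**Figure D2:**
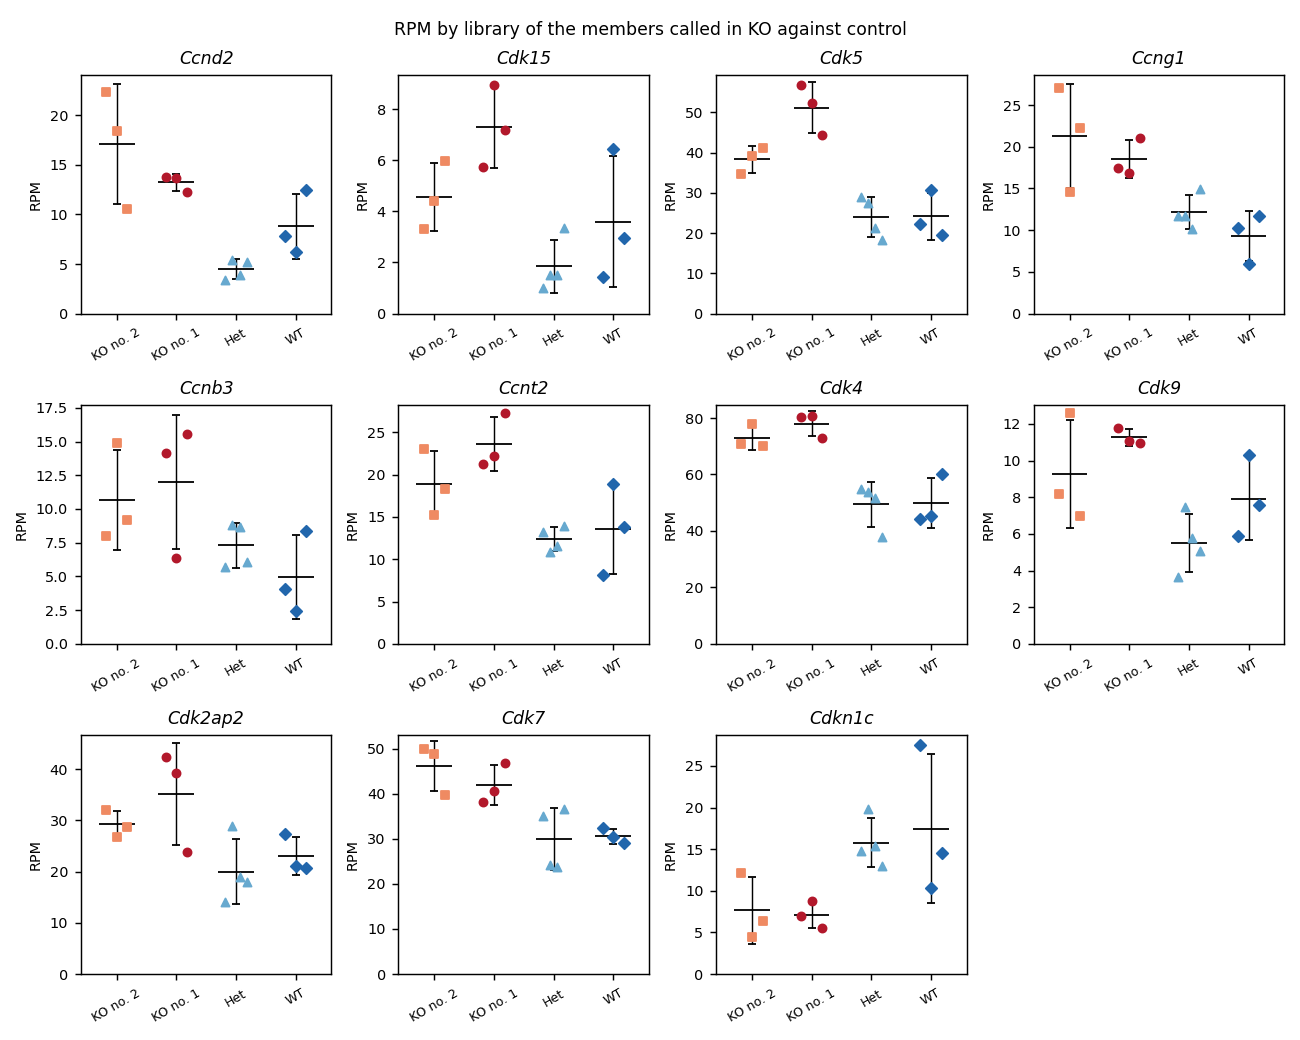
RPM in each library of the 11 genes called in KO against control, in KO libraries of title number 2 and number 1, Het and WT libraries, with bars for the group mean and SD (n = 3, 3, 4 and 3). In Cdk5, Cdk4 and Cdk7 every KO library lies above every control, and Cdkn1c is the gene whose KO libraries lie low.

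Among the inhibitors Cdkn1c fell. Cdkn1c codes for p57, an imprinted CIP/KIP inhibitor that holds cells out of the cycle, and lies on chromosome 7 (143458350 to 143461050). Its reads came to 4.40, 6.72 and 12.2 RPM in KO against 10.3, 14.8 and 27.5 RPM in control libraries. Of the 6 KO libraries 5 lay below every control, and KO replicate 4 lay within the control range. Cdkn1c averaged 7.40 ± 2.77 RPM in KO (SD, n = 6) and 16.5 ± 5.65 RPM in control libraries (n = 7). The log2 difference was -1.06 (SE 0.229, limma adjusted p = 0.00197), or -1.22 relative to the median of all genes. It was -1.09 against WT alone and -1.04 against Het alone (limma adjusted p of 0.0259 and 0.00882).

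The other CIP/KIP inhibitors were not called. Cdkn1a, which codes for p21 and is a target of p53, was read at 9.98, 11.2 and 17.2 RPM in KO against 9.66, 12.5 and 16.4 RPM in control libraries. Those groups overlapped throughout, with a log2 difference of -0.12 and a 95% interval of -0.48 to 0.24. Cdkn1b, which codes for p27, was scarce at 1.56 RPM in KO and 1.62 in control. Of the INK4 inhibitors 0 of 3 tested were called at the adjusted threshold in KO against control. Cdkn2d, known with Cdkn2c from the arrest of mouse spermatocytes and spermatids, was read at 49.6, 58.8 and 83.1 RPM in KO against 47.4, 55.8 and 64.1 RPM in control libraries, a log2 difference of 0.18 with overlapping groups. Cdkn2b stood at 5.96 RPM in KO and 4.42 in control. Cdkn2a was too low to test, with at most 0.994 RPM in KO and 1.18 RPM in control libraries.

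Of the 8 CDKs that act in transcription Cdk7 and Cdk9 rose. Cdk7, the kinase of general transcription factor TFIIH that also activates other CDKs, lies on chromosome 13 (100697027 to 100730942). Levels were 38.3, 43.8 and 49.9 RPM in KO against 23.7, 30.3 and 36.6 RPM in control libraries, and every KO library lay above every control. The fitted log2 difference was 0.54 (SE 0.127, limma adjusted p = 0.00403), 0.38 above the median of all genes. Its row overlaps Ccdc125 on the opposite strand, which held 0.386 RPM in KO and 0.232 in control. Against WT alone the Cdk7 difference was 0.51 with a limma adjusted p of 0.0579.

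Cdk9 is the kinase of P-TEFb, which releases paused RNA polymerase II, and lies on chromosome 2 (32705784 to 32713076). It was read at 7.001, 11.0 and 12.6 RPM in KO against 3.66, 5.87 and 10.3 RPM in control libraries, with 4 KO libraries above every control. The log2 difference was 0.61 (SE 0.217, limma adjusted p = 0.0458), 0.45 above the median of all genes. The call was lost without any single one of 8 libraries (WT replicate 1, Het replicates 1, 3 and 4, KO replicates 1, 2, 3 and 5), where the limma adjusted p reached up to 0.0983, and it was 0.124 with median-of-ratios scaling.

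Cdk8, a kinase of the Mediator complex with the highest RPM of these 8, was read at 83.3, 96.5 and 128 RPM in KO against 76.1, 100.2 and 119 RPM in control libraries. The groups overlapped, and the log2 difference was -0.06 with a 95% interval of -0.30 to 0.18. Cdk10, Cdk11b, Cdk12, Cdk13 and Cdk19 had log2 differences between 0.06 and 0.31 and were not called. Of the 4 cyclins of transcription and splicing, Ccnt2 rose. It is a T cyclin that partners CDK9 and lies on chromosome 1 (127774164 to 127808061). Ccnt2 was read at 15.2, 21.8 and 27.3 RPM in KO against 8.09, 13.3 and 18.9 RPM in control libraries. The groups overlapped through WT replicate 2, and the log2 difference was 0.69 (SE 0.181, limma adjusted p = 0.00847), 0.53 above the median of all genes. Ccnl2, a cyclin of splicing speckles, was read at 39.5, 47.7 and 62.2 RPM in KO against 29.95, 36.9 and 49.6 RPM in control libraries, a log2 difference of 0.36 (limma adjusted p = 0.0674). Ccnl1 and Ccnt1 had log2 differences of 0.29 and 0.17.

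**Figure D3:**
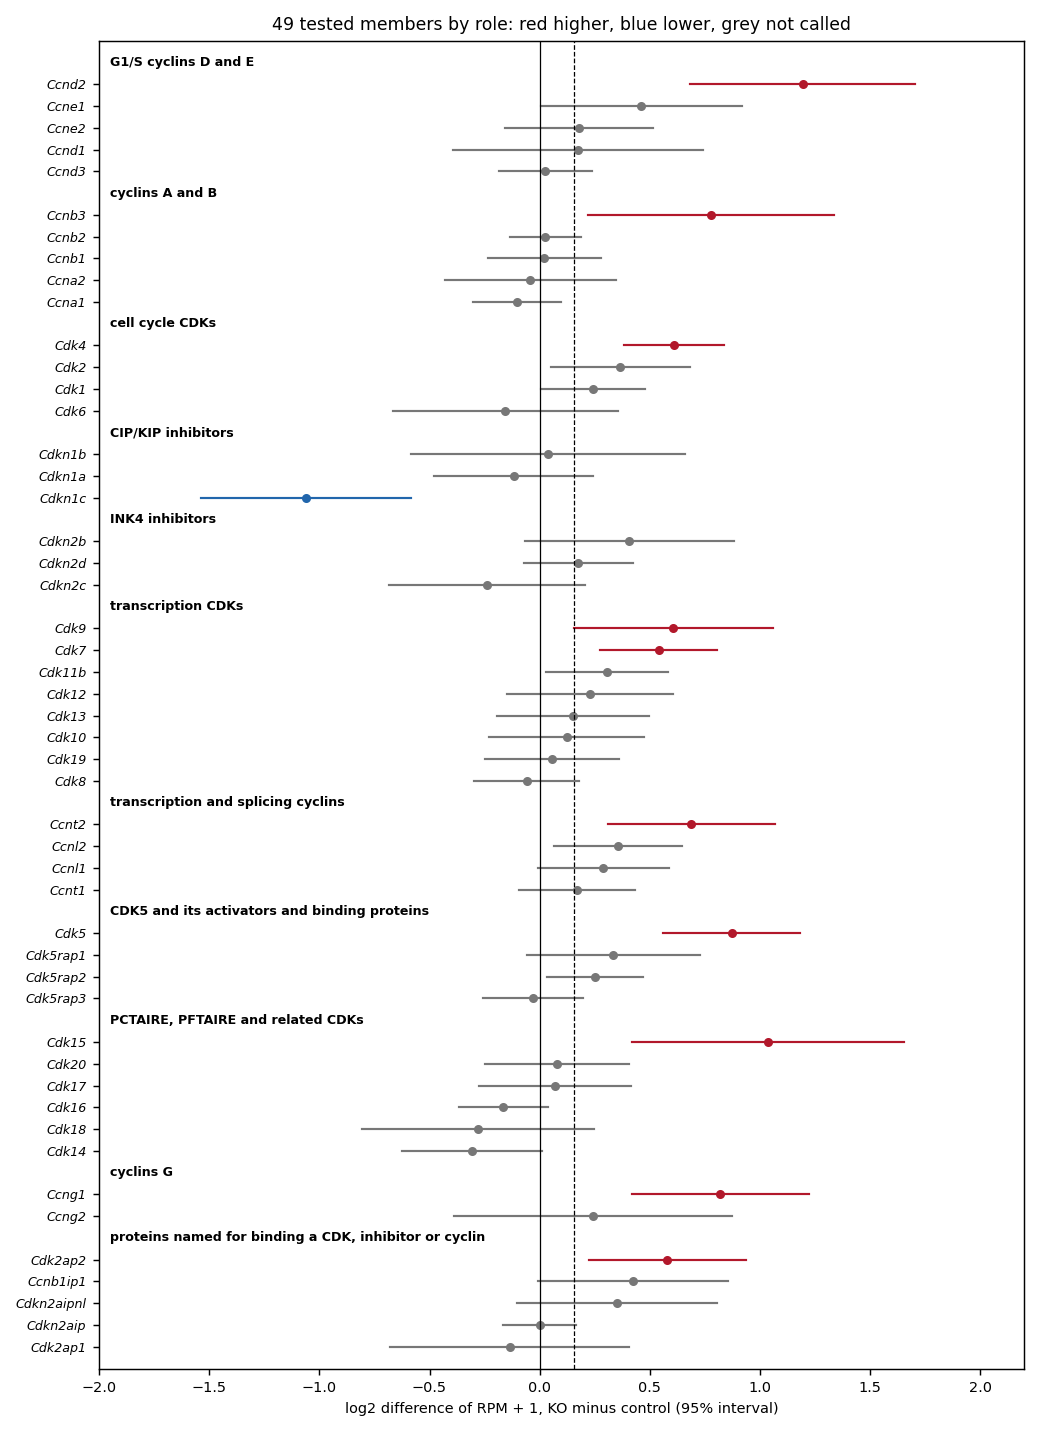
Log2 difference of RPM + 1, KO minus control, with its 95% interval for the 49 tested genes by role, in red where called higher, blue where called lower and grey where not called, with a dashed line at the median of all genes tested (0.16). The 10 red genes are spread over 9 of the 11 role groups, and Cdkn1c is the only blue one.

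Cdk5 had the lowest adjusted p of the family. It is an atypical CDK best known from neurons, activated by the non-cyclin proteins of Cdk5r1 and Cdk5r2, and lies on chromosome 5 (24418250 to 24423530). Its reads came to 34.6, 42.8 and 56.7 RPM in KO against 18.2, 22.2 and 30.7 RPM in control libraries, and every KO library lay above every control. Cdk5 averaged 44.7 ± 8.35 RPM in KO (SD, n = 6) and 24.0 ± 4.90 RPM in control libraries (n = 7), a log2 difference of 0.87 (SE 0.149, limma adjusted p = 0.000271), 0.72 above the median of all genes. Its activators were nearly absent. Cdk5r2 had 0 reads in all 13 libraries, which allows up to 0.27 to 0.665 RPM (3 reads, counting error only). Cdk5r1 had 0.327 RPM or less in KO and 0.36 to 1.40 RPM in control libraries, too low to test in the main comparison. Of the proteins named for binding CDK5, Cdk5rap2, a centrosomal protein, was read at 146, 166 and 212 RPM in KO against 120, 142 and 183 RPM in control libraries, a log2 difference of 0.25 (limma adjusted p = 0.0857) with overlapping groups. Cdk5rap1 and Cdk5rap3 had log2 differences of 0.33 and -0.03.

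Of the PCTAIRE, PFTAIRE and related kinases 1 of 6 rose. Cdk15, a little studied PFTAIRE kinase, lies on chromosome 1 (59256906 to 59352993). Levels were 3.32, 5.86 and 8.95 RPM in KO against 1.01, 1.53 and 6.44 RPM in control libraries. WT replicate 2 lay above 4 of the KO libraries, and the log2 difference was 1.03 (SE 0.297, limma adjusted p = 0.0145), 0.88 above the median of all genes. Cdk16, the gene of the family with the highest RPM, was read at 184, 208 and 256 RPM in KO against 200.1, 230 and 273 RPM in control libraries, and 5 KO libraries lay below the control mean. The fitted log2 difference was -0.16 (limma adjusted p = 0.232). Scaled by the median of ratios it was -0.32 (0.034). Cdk14, the other PFTAIRE kinase, averaged 31.3 RPM in KO and 39.3 in control, a log2 difference of -0.31 (limma adjusted p = 0.149) that became -0.46 (0.0399) with that scaling. Cdk17, Cdk18 and Cdk20 had log2 differences of 0.07, -0.28 and 0.08.

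The last 2 genes that rose lie outside the classical cell cycle. Ccng1, an unusual cyclin that p53 induces, lies on chromosome 11 (40748552 to 40755311). It was read at 14.6, 19.3 and 27.0 RPM in KO against 5.90, 11.7 and 15.0 RPM in control libraries, with 5 KO libraries above every control. The log2 difference was 0.82 (SE 0.192, limma adjusted p = 0.00382), 0.66 above the median of all genes. Ccng2 stood at 5.49 RPM in KO and 4.15 in control, a log2 difference of 0.24. Cdk2ap2, a relative of the CDK2-binding protein Cdk2ap1, lies on chromosome 19 (4097182 to 4099019). Its reads came to 23.9, 30.5 and 42.5 RPM in KO against 14.0, 20.7 and 28.9 RPM in control libraries. The groups overlapped, and the log2 difference was 0.58 (SE 0.172, limma adjusted p = 0.0173), 0.42 above the median of all genes. Cdkn2aip, with the highest RPM among it, Cdk2ap1, Cdk2ap2, Cdkn2aipnl and Ccnb1ip1, was read at 118, 126 and 143 RPM in KO against 119, 131 and 135 RPM in control libraries. Its 95% interval of the log2 difference ran from -0.17 to 0.17. Cdk2ap1, Cdkn2aipnl and Ccnb1ip1 had log2 differences of -0.14, 0.35 and 0.42 and were not called.

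Part of these calls depended on how libraries were scaled. Ccnd2, Cdk4, Cdk5 and Cdkn1c were called in the same direction with RPM, with median-of-ratios scaling and with quantile normalization. With median-of-ratios scaling 7 genes were called higher and 3 lower, against 10.5% higher and 10.6% lower of all genes tested. Ccng1, Ccnt2, Cdk15 and Cdk7 stayed called there, Cdk9, Cdk2ap2 and Ccnb3 did not, and Cdk14 and Cdk16 were added as lower. With quantile normalization 3 were called higher and 2 lower (8.99% and 9.44% of all genes). Against WT alone 4 genes were higher and 1 lower (6.05% and 3.34% of all genes, 9.39% in all), and against Het alone 11 and 1 (16.9% and 5.15%, 22.1% in all), in a fit of 3 groups. Of the 11 genes, Ccnd2, Cdk15, Ccnt2, Cdk9, Cdk7 and Cdk2ap2 were not called against the 3 WT libraries alone, with limma adjusted p between 0.0579 and 0.453 and the same sign, and Ccnb3 was not called against Het alone (0.227).

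Each of the 2 title numbers among the KO libraries was also set against the same 7 controls, so both comparisons share those libraries. In number 2 against control 7 genes were higher and 1 lower, beside 12.4% of all genes called (7.8% higher and 4.64% lower). In number 1 against control 9 were higher and 2 lower, beside 22.7% (17.0% higher and 5.74% lower). Ccnd2, Ccng1, Cdk4, Cdk5, Cdk7 and Cdkn1c were called in both. Cdk11b and Cdk5rap2 were called in number 2 alone, with log2 differences of 0.55 and 0.40 in number 2 and 0.07 and 0.10 in number 1, and Ccnt2, Cdk15, Cdk2ap2, Cdk9 and Cdkn2c in number 1 alone, of which Cdkn2c alone differed between the numbers when the difference itself was tested. The log2 difference of Cdkn1c was -1.06 in number 2 and -1.07 in number 1, that of Ccnd2 1.34 and 1.05, that of Cdk4 0.56 and 0.66, and that of Cdk5 0.67 and 1.07. Each number has 3 libraries, and leaving out 1 of them left 2 genes higher in number 2 (without KO replicate 5), 4 (without KO replicate 6) or 5 (without KO replicate 4). It left 4, 4 and 5 higher in number 1 without KO replicates 1, 2 and 3. Of all 16235 genes 506, 779 and 777 were then higher in number 2, and 2252, 1858 and 1693 in number 1, in the same order.

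The difference between the KO libraries of the 2 numbers was tested itself, and 1 gene of the 49 passed, higher in number 2, against 0.179% of all genes tested (0.0801% higher and 0.0986% lower). Cdkn2c codes for p18, an INK4 inhibitor, and lies on chromosome 4 (109660876 to 109667189). Its level was 44.8, 38.9 and 30.2 RPM in number 2 (KO replicates 4 to 6) and 17.5, 19.4 and 15.9 RPM in number 1 (KO replicates 1 to 3). All libraries of number 2 lay above all of number 1, while the controls ran from 24.1 to 44.5 RPM, above all of number 1. The log2 difference of number 2 minus number 1 was 1.05 (SE 0.216, limma adjusted p = 0.0484), and it was 0.29 in number 2 against control and -0.76 in number 1 against control (limma adjusted p of 0.317 and 0.00479). The direction held throughout, but the call is close to the threshold. It was lost with limma-voom on recovered reads (limma adjusted p = 0.0985), with median-of-ratios scaling (0.0517) and without any single one of 9 libraries (WT replicates 1 and 2, Het replicates 2 and 3, KO replicates 1 to 5), up to 0.144 without KO replicate 4. Het replicate 1 is the only control of number 1, so an effect of the number and one of the genotype label cannot be told apart for the KO libraries of number 1.

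**Figure D4:**
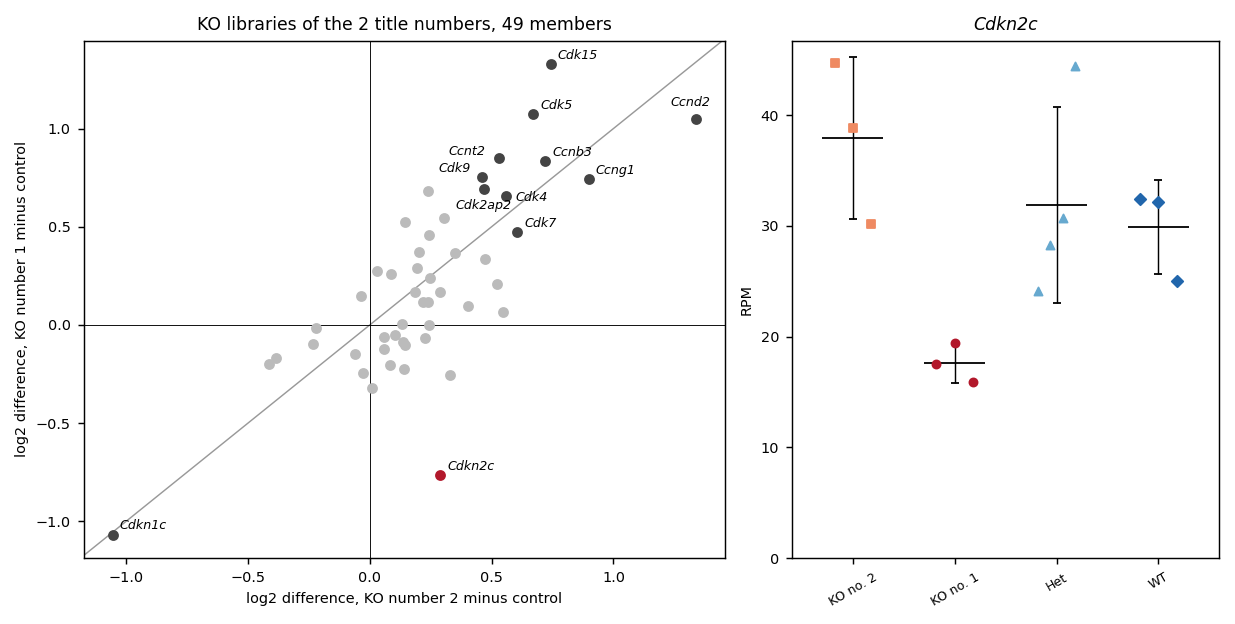
Left, log2 difference from the shared controls in KO libraries of title number 2 (x axis) and number 1 (y axis) for the 49 tested genes, dark where called in KO against control, red for Cdkn2c, with the line of equal differences. Right, RPM of Cdkn2c in each library with group mean and SD, where KO libraries of number 2 (30.2 to 44.8 RPM) all lie above those of number 1 (15.9 to 19.4 RPM).

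Het and WT libraries, which are pooled as control, were also compared. None of the 49 genes was called by limma, as none of all 16235 were, while 2 of the 49 and 957 of all genes had an unadjusted p under 0.05 (1 of the 49 by limma-voom). Ccnd2 averaged 4.47 ± 0.99 RPM in Het (SD, n = 4) and 8.81 ± 3.27 RPM in WT libraries (n = 3), a log2 difference of -0.81 with a limma adjusted p of 0.68.

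Genes of the same pathway outside the family were described by lists, each count beside the 18.4% of all genes tested that were called higher and the 6.18% called lower. Of 21 tested other cyclins and CDK-like genes 0 rose and 2 fell, Ccnyl1 (30.1 ± 4.17 RPM in KO, 39.3 ± 3.16 in control, log2 -0.38, limma adjusted p = 0.0194) and Cdkn3, a phosphatase of CDKs (139 ± 8.21 and 165 ± 14.4 RPM, log2 -0.24, limma adjusted p = 0.0304). Their median log2 difference was 0.15, beside 0.16 for all genes. The list holds Ccnk, at 264 RPM in KO and 273 in control, and Spdya, the CDK2 activator of mouse meiosis, at 105 and 106 RPM, neither of which was called. Of 19 genes of the RB and E2F group 2 rose and 0 fell (median 0.21, beside 18.4% higher and 6.18% lower of all genes). These were Rb1, the retinoblastoma gene itself (19.2 ± 2.93 RPM in KO, 11.2 ± 3.51 in control, log2 0.77, limma adjusted p = 0.00637), and Tfdp2, an E2F partner (43.0 ± 8.01 and 27.1 ± 7.72 RPM, log2 0.67, limma adjusted p = 0.00771).

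Of 11 tested genes of the phosphorylation switch of CDKs 0 rose and 2 fell (median -0.04, beside 18.4% higher and 6.18% lower of all genes), the phosphatases Cdc14b (53.2 ± 10.6 RPM in KO, 77.5 ± 9.92 in control, log2 -0.55, limma adjusted p = 0.00368) and Cdc25c (22.8 ± 5.46 and 31.9 ± 6.98 RPM, log2 -0.47, limma adjusted p = 0.0439). Of 23 genes listed for cyclin turnover 7 rose and 1 fell (median 0.16, beside 18.4% higher and 6.18% lower of all genes). Most belong to the ubiquitin ligases that destroy cyclins and inhibitors (APC/C and SCF). The list also holds genes that are not ligase subunits, such as Bub1b, Mad2l1, Pttg1, Fbxo5 and Bub1. Bub1 is one of the 7 that rose (log2 0.33, limma adjusted p = 0.0435). The one that fell was Skp2, the SCF subunit that marks p27 for destruction, at 103 ± 16.0 RPM in KO and 174 ± 13.7 RPM in control (SD, n = 6 and 7), a log2 difference of -0.75 (limma adjusted p = 1.35e-05). Of those that rose, Anapc2, Anapc5 and Cdc26, subunits of the APC/C, had log2 differences of 0.43, 0.41 and 0.56. The counts were 2 and 1 when libraries were scaled by the median of ratios, beside 10.5% higher and 10.6% lower of all genes.

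Of 16 genes of proliferation and DNA replication 3 rose and 0 fell (median 0.16), a share near the 18.4% of all genes called higher (6.18% lower). These were Top2a (183 ± 15.9 RPM in KO, 142 ± 14.5 in control), Mcm2 (26.0 ± 5.36 and 17.3 ± 4.11 RPM) and Mcm4 (16.3 ± 4.85 and 9.65 ± 3.10 RPM). Scaled by the median of ratios, 0 of 16 were called. Of 15 tested genes of p53 and its targets 8 rose and 1 fell, beside 18.4% higher and 6.18% lower of all genes (median 0.59, beside 0.16 for all genes). The same scaling gave 6 higher and 1 lower (median 0.45), beside 10.5% and 10.6% of all genes. Quantile normalization gave 2 higher and 1 lower (median 0.34), beside 8.99% and 9.44%. With libraries of title number 2 only, 1 rose and 0 fell (median 0.58), beside 870 and 645 of all 16235 genes. KO libraries of number 1 against control gave 6 higher and those of number 2 gave 4, with 0 lower, beside 17.0% and 7.8% of all genes higher. In KO against control the lowest adjusted p-values were those of Sesn2 (50.2 ± 11.9 RPM in KO, 27.1 ± 4.24 in control, log2 0.85, limma adjusted p = 0.000265), Sesn1 (0.76, 0.00253), Trp53inp1 (0.71, 0.00479) and Aen (0.68, 0.00904). The gene that fell was Tnfrsf10b (-0.65, 0.0418), and Mdm2 was not called (176 ± 15.0 RPM in KO, 166 ± 12.7 in control). Ccng1 is a p53 target among the cyclins and rose, and Cdkn1a is one among the inhibitors and was not called.

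The genes whose level followed that of 2 family members most closely over the 13 libraries were listed as a description. For Ccnd2 these were Me1, Lamb1 and Xbp1, with Pearson's r of 0.93, 0.92 and 0.92. Within the 6 KO libraries their r with Ccnd2 was 0.66, 0.69 and 0.47, and within the 7 control libraries 0.84, 0.88 and 0.88. For Ccna1 they were Med24, Rogdi and Prss54, with r of 0.85, 0.85 and 0.84 over the 13 libraries. These points share library depth and cell content, and the genes were picked as the highest of 16235.

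Some levels rest on rows that reads cannot fully separate. Of the 52 genes 13 overlap another listed gene, among them Ccna2, Ccne2, Cdk19, Cdk5rap3 and Ccnd3. Cdk10 (18.4 RPM in KO, 16.6 in control) overlaps Gm20388 on the same strand, which held 3319 and 3190 RPM. Cdk11b overlaps Gm10563 on the opposite strand, which rose in KO against control (log2 0.40, limma adjusted p = 0.0184). In transcript sequence 16 of the 52 share at least 200 bases at 95% identity or more with another annotated gene, overlapping neighbours included, such as Ccnb1 with several pseudogenes and Cdk2ap1 with Gm12184, and no label says how the authors counted such reads. Besides Cdk4, this holds for 2 genes that were called. Ccnd2 shares 374 bases with Gm43126 and Cdkn1c 422 bases with Gm44732, at 100% identity, and neither partner is a listed gene.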

How the data were processed

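Whole testis RNA (about 2 ng per library) was made into Smart-seq2 libraries with 11 cycles of PCR, per the labels' protocols. The authors deposited log2 RPM of 25965 genes in 13 libraries. Per the submitters' processing notes FastQC 0.11.8, Trim Galore 0.6.6 and the mm10 build were used. No source used here names the aligner, the counting program or the strand counted. Libraries were treated as separate mice, since the design text counts mice. The lowest deposited value of each library is that of 0.9 read and was set to 0, and at least 99.96% of the other values were whole reads (within 0.01 read).

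Groups came from the labels. limma 3.58.1 (R 4.3.3), with its trend of variance on mean, was run on log2(RPM + 1) of the 16235 genes averaging 1 RPM or more, two-sided, adjusted by Benjamini and Hochberg, with 0.05 as the threshold. Wfdc15a was tested by exact permutation (SciPy 1.17.1). Log2 differences of low genes are understated by the added 1 RPM. Count models were not used, as the deposited unit is log2, and limma-voom was run on recovered reads as an alternative. Exon lengths, overlaps and coordinates (mm10) are those of the table and GENCODE release M21, and similar transcripts were found with BLAST 2.17.0. The fit was tested on simulated data. The 95% limit of a count of 0 covers counting error only, since PCR copies carry no molecular identifiers. The genes and the lists were chosen with earlier results of these data known. Called genes and the gene of each role with the highest RPM are given in full, and of other lists up to 4 genes with the lowest adjusted p. Alternatives were another pseudocount, filter, scaling, test, control or set of libraries, and a replicate block.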

Additional observations from a re-analysis of the deposited data

Results flagged for a closer look

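Of 98 groups of 6 KO or 7 control libraries examined, 6 held a library far from the rest of its group, where chance flags about 1 in 20. Cdk5rap1 stood at 25.0 RPM in Het replicate 1, against 10.4 to 14.6 RPM in the other controls. Cdk14 stood at 21.3 RPM in KO replicate 5, against 32.6 to 35.0 RPM in the other KO libraries. In the same library Cdk2ap1 stood at 10.9 RPM, against 4.36 to 5.72 RPM in the other KO libraries. Cdkn1a stood at 17.2 RPM in KO replicate 1, against 9.98 to 11.7 RPM in the other KO libraries. Ccng1 stood at 5.90 RPM in WT replicate 2, against 10.2 to 15.0 RPM in the other controls, and Cdkn2aipnl at 13.9 RPM in WT replicate 3, against 9.10 to 10.3 RPM.

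The difference between KO libraries of the 2 title numbers passed its own test in Cdkn2c (log2 1.05, number 2 minus number 1, limma adjusted p = 0.0484, between 0.023 and 0.144 over its alternatives).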

How the results depend on the processing

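In KO against control 10 genes were higher and 1 lower. The count higher became 3 with quantile normalization, 6 with title number 2 only and 4 against WT only, and it ran from 8 to 11 when each library was left out in turn. With title number 2 only, Cdk15, Ccnt2, Cdk9, Cdk2ap2 and Ccnb3 lost their call (limma adjusted p between 0.174 and 0.441). In that setting Cdk11b gained one (0.035). The count lower became 2 with no filter on low values (Cdk5r1 added), 3 with median-of-ratios scaling and 2 with quantile normalization, and was 1 to 1 when each library was left out. Of all 16235 genes 2994 were higher, 1460 with quantile normalization, 870 with title number 2 only and 982 against WT only. Those lower were 1003, 1532, 645 and 543 in that order, and 1716 with median-of-ratios scaling. With no filter 925 of 22465 genes were lower. Leaving out each library gave 2378 to 3002 of all genes higher and 884 to 1015 lower. In KO number 1 against control (9 higher, 2 lower) the count higher became 5 with median-of-ratios scaling and 3 with quantile normalization, and 4 to 10 higher and 1 to 2 lower were left without single libraries. In KO number 2 against control (7 higher, 1 lower) it became 1 and 3 with those scalings, and 2 to 8 higher and 0 to 1 lower without single libraries. Of all genes 2754 were higher in number 1, 1848 and 1458 with those scalings, and 1693 to 2811 without single libraries. In number 2 these counts were 1266, 544, 653 and 506 to 1443. Of all genes 575 to 959 were lower without single libraries in number 1, and 525 to 779 in number 2. For number 2 against number 1 the 1 gene higher became 0 with a pseudocount of 0.1 RPM, no filter, median-of-ratios scaling and limma-voom, and was 0 to 1 without single libraries, with 0 to 0 lower. Het against WT gave 0 to 0 throughout. For number 2 against number 1, 13 of all genes were higher, and 8, 4, 12 and 5 in those settings. Without single libraries 1 to 53 of all genes were higher and 8 to 42 lower. The cause of these changes was not tested, beyond the fewer libraries of some fits. No tested gene changed direction at a call.

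Replicate numbers did not pair the samples: 1 of 10 same-numbered pairs correlated above 0.1 (range -0.083 to 0.126). The 44 pairs of different replicate numbers ran from -0.1304 to 0.1804, and 2 of 13 libraries correlated best with their own number. Het replicate 1, the only control of title number 1, had r of 0.126, 0.1095 and 0.114 with KO replicates 1 to 3. With KO replicates 4 to 6, which have title number 2, its r was -0.1304, -0.129 and -0.0961. Controls of title number 2 gave r of both signs with KO libraries of either title number. The pattern of Het replicate 1 rests on 1 library and was not tested. With the replicate block 10 genes were higher and 2 lower, with Cdkn2c (-0.54) and Ccne1 (0.63) added and Ccnb3 (limma adjusted p = 0.0758) lost. Of all 16235 genes 2845 were higher and 985 lower with that block. Depth limited Cdk5r1, Cdk5r2 and Cdkn2a, which had 10 reads or fewer in each library.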
